A study of Mus musculus with 18 samples.

Results

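The mRNAs described here are 39 long or synaptic mouse mRNAs that FMRP, the protein lost in fragile X syndrome, is known to bind in brain. They were chosen by name from that knowledge and matched to Ensembl identifiers, out of 55414 genes in the counted annotation. RNA was sequenced from Neuro-2a (N2A) cells, a mouse neuroblastoma line, 72 h after transfection with 1 of 6 siRNAs. Scramble siRNA A and Scramble siRNA B were the negative controls, *Fmr1* siRNA A and *Fmr1* siRNA B targeted the mRNA of FMRP, and *Zfp598* siRNA A and *Zfp598* siRNA B targeted the mRNA of ZFP598. Each siRNA had 3 libraries, 18 in all, so that each of the 3 knockdown (KD) conditions had 6. As far as the labels say, the groups differ by siRNA only. Each siRNA knockdown was carried out in triplicate. Whether the triplicates were transfected on different days is not given in the sources used here, so p-values measure the spread between these libraries, which may in part be technical.

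FMRP binds mRNAs, associates with translating ribosomes and slows their translation. In neurons its targets are enriched for very long mRNAs of the synapse and of the cytoskeleton, and loss of FMRP leads to excess protein synthesis downstream of group 1 metabotropic glutamate receptors (mGluRs). ZFP598 is the ubiquitin ligase that recognizes collided ribosomes and starts ribosome quality control and no-go decay of the mRNA. The comparison asked whether the steady-state level of mRNAs that FMRP binds moved when either protein was depleted. Of the 39 members, 30 had enough counts to be tested, among 17901 tested genes.

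The coding windows below show, for 7 members that the results turn on, the 60 bases within a single coding exon that hold the most matches to AGGA or TGGA, which are short motifs known from studies of FMRP binding. They were read from the canonical GENCODE M39 transcripts on GRCm39, and capitals mark the matches, which were searched on the sense strand of the mRNA only and may overlap.
Tsc2: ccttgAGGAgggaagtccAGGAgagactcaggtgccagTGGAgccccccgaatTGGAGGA
Dlg4: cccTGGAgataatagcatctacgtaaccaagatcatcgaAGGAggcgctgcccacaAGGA
Arc: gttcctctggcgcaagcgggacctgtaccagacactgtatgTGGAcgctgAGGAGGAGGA
Ank3: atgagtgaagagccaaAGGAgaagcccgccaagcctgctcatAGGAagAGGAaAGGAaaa
Shank2: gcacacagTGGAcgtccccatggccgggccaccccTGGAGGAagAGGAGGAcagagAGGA
Cacna1b: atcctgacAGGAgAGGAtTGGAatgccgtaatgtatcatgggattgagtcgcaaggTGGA
Map1b: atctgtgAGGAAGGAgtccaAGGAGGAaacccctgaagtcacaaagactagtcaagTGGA
The *Tsc2* window lies in exon 32 (chr17:24819367-24819426, minus strand) and the *Dlg4* window in exon 7 (chr11:69922224-69922283, plus strand). The *Arc* window lies in exon 1 (chr15:74543263-74543322, minus strand), and the *Ank3* window is the first 60 coding bases, in exon 1 (chr10:69370052-69370111, plus strand). The *Shank2* window lies in exon 22 (chr7:143964574-143964633, plus strand), the *Cacna1b* window in exon 16 (chr2:24580811-24580870, minus strand) and the *Map1b* window in exon 5 (chr13:99570996-99571055, minus strand).

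The *Shank2* window held 6 matches, and 10.4% of the 12796 tested protein-coding genes had a coding window with at least as many. Windows counted for these genes could span exon junctions, while each window shown lies within a single exon. A longer coding sequence also holds more windows. The windows of *Tsc2* and *Map1b* held 5 matches, a number reached by 27.3% of these genes. Those of *Arc*, *Ank3* and *Cacna1b* held 4 (60.1%) and that of *Dlg4* held 3 (88.9%). Windows with 3 or 4 matches were thus in most of the genes that these cells express. Over whole coding sequences, AGGA and TGGA together had a median of 16.1 matches per kb in the 30 tested members against 16.3 in all tested protein-coding genes. *Arc* had the most, 27.7 per kb, and *Nlgn2* the fewest, 10.8 per kb. The motifs ACTG and ACTT, also known from FMRP binding, had a median of 7.59 per kb in tested members against 8.30 in all. The members were long. Their median coding sequence was 5506 bases against 1398 over all tested protein-coding genes, and their median summed exon length was 15790 bases against 6232. A match is a description of letters and not of a binding site.

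N2A cells expressed the members over a very wide range of levels. Levels are compared between genes as depth-normalized counts (CPM) per kb of summed exon, averaged over the 6 Scramble libraries, which understates a gene whose cells use a short isoform. *Map1b*, a microtubule-associated protein whose mRNA is a classic FMRP target, was the most abundant at 112.5 CPM per kb. *Ubr4* and *Huwe1*, both giant ubiquitin ligases, and *Dync1h1*, the dynein heavy chain, followed at 59.6, 55.7 and 56.7 CPM per kb, and the ranges of these last 3 over the Scramble libraries overlapped. *App*, the amyloid precursor protein, stood at 21.6 CPM per kb. *Dlg4*, which encodes the postsynaptic scaffold PSD-95, stood at 17.3 CPM per kb, beside *Cacna1b*, the pore subunit of the N-type calcium channel, at 16.9 CPM per kb. Most of the remaining tested members lay between 4.02 (*Map2*) and 12.9 (*Nf1*) CPM per kb. *Grin1*, *Shank1* and *Shank2* were lower, at 1.48, 1.12 and 0.964 CPM per kb, and *Nrxn3*, *Dlgap1* and *Cacna1a* lay between 0.223 and 0.318 CPM per kb.

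**Figure D1:**
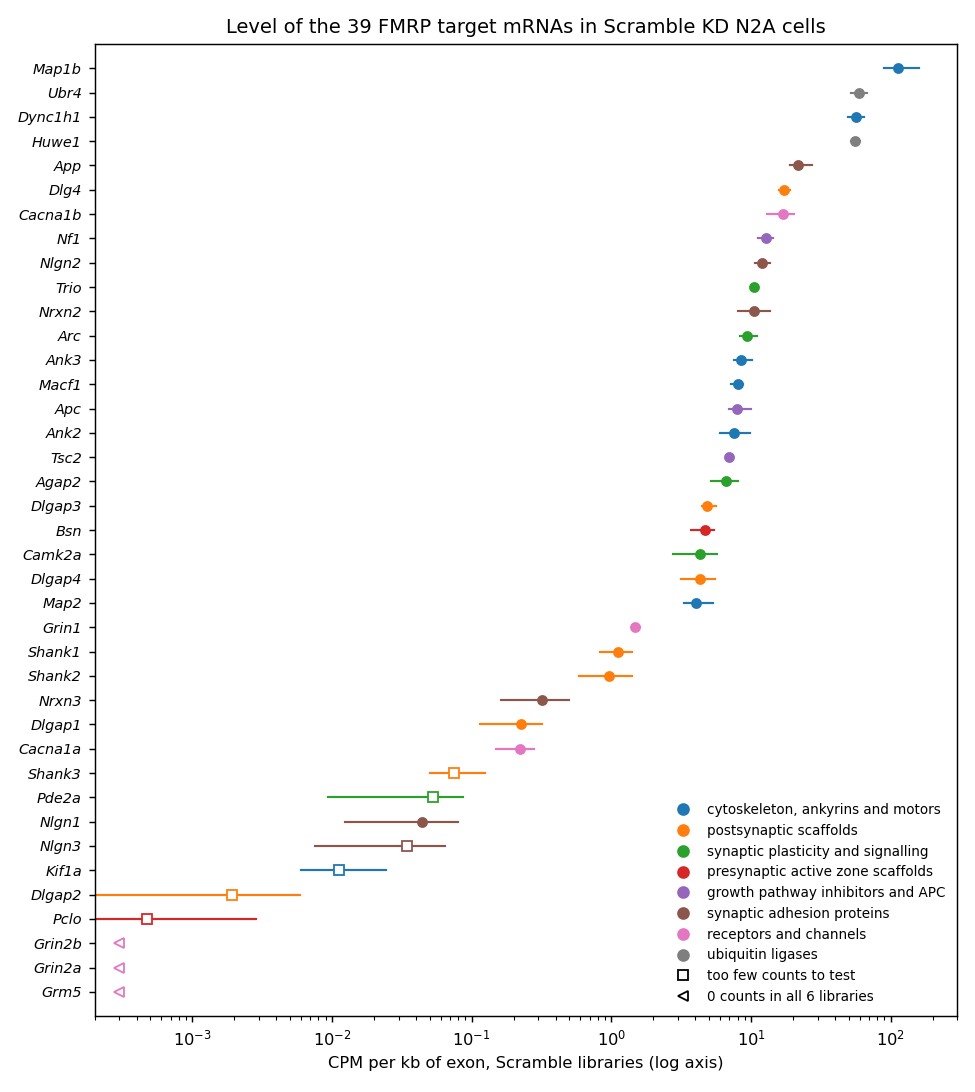
Level of each of the 39 members in Scramble KD cells, as CPM per kb of summed exon on a log axis. Points are means and lines the range over 6 libraries, cut off at the left edge where a library had 0 counts, and colours mark the 8 roles. *Map1b* is highest at 112.5 CPM per kb, and 3 receptor genes had no count in these libraries.

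The 9 members that could not be tested include the receptors of mature synapses. *Grm5*, the mGluR through which loss of FMRP acts in hippocampus, had 0 counts in all 18 libraries. By raw total counts this allows up to 0.195 to 0.391 CPM depending on the library's depth, for counting error only. These limits do not use the TMM library sizes of the other CPM values, which would shift them. *Grin2a*, an NMDA receptor subunit, had at most 1 count. *Pclo*, *Dlgap2*, *Kif1a*, *Pde2a* and *Nlgn3* had at most 4, 6, 9, 10 and 12 counts in any library. *Shank3* had at most 29 counts. *Grin2b*, another NMDA receptor subunit, had 0 counts in 17 libraries and 27 counts in *Fmr1* KD replicate B1. *Nlgn1* passed the filter with 0 to 17 counts per library, so that its fold changes carry standard errors of 0.41 to 1.08 on the log2 scale. Changes of receptor genes could therefore be measured for *Grin1*, the obligate NMDA receptor subunit, and for the calcium channels *Cacna1a* and *Cacna1b*.

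Total counts ran from 7674724 to 15414590 per library. All 8 neuroblastoma markers were detected in each library, with a summed level of 606 to 1258 CPM, and of the mature excitatory neuron markers *Slc17a6* had 0 counts in all libraries and *Neurod6* in 17. A pair of libraries of *Zfp598* siRNA A stood apart, since 1 feature with no GENCODE M39 entry took 15.2% of the counts of replicate A2 and 25.8% of those of replicate A3, against 5.00% to 11.1% in the others. *Fmr1* KD replicate B1 stood apart by pluripotent stem cell markers. All 11 that could be matched were detected in it, with a sum of 45.7 CPM against 3.16 to 8.63 CPM in the other 17 libraries. Each pair of replicates differed by more than sampling noise. *Fmr1* itself fell from 51.1 to 68.7 CPM over the Scramble libraries to 15.7, 21.99 and 16.8 CPM with *Fmr1* siRNA A and to 27.5, 25.1 and 26.98 CPM with *Fmr1* siRNA B. *Zfp598* fell from 103 to 128 CPM to 32.2, 40.95 and 48.7 CPM with *Zfp598* siRNA A and to 41.03, 43.6 and 39.95 CPM with *Zfp598* siRNA B. The knockdowns were thus clear in each library of their own condition.

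With both siRNAs of a target pooled, 6 libraries against 6, 1 member rose with *Fmr1* KD. It was *Tsc2*, which encodes tuberin, the GTPase-activating protein that holds mTORC1 in check. No member fell. A member or gene was called when the adjusted p of edgeR's quasi-likelihood test was under 0.05 over all tested genes. Among all tested genes 2.73% were called higher and 3.80% lower with *Fmr1* KD. The 1 of 30 members called higher (3.33%) is near that background. At an unadjusted p under 0.05, 2 members were higher and 3 lower. With *Zfp598* KD no member was called in either direction, where 0.916% of all tested genes were called higher and 1.04% lower, and at an unadjusted p under 0.05 1 member was higher and 5 lower. No member was both called and changed by more than 2-fold in a pooled comparison. *Nlgn1*, with 0 to 17 counts per library, had the largest pooled estimate, -1.28 ± 0.50 with *Zfp598* KD (adjusted p = 0.178). It passed the count filter only through Scramble and *Fmr1* KD libraries, and no *Zfp598* KD library had more than 5 counts. A lower estimate with *Zfp598* KD thus follows in part from the filter. With the criterion of a call and a 2-fold change 0.665% of tested genes were higher and 0.335% lower with *Fmr1* KD, and 0.251% and 0.212% with *Zfp598* KD. DESeq2 called 2 members higher with *Fmr1* KD (*Shank2* and *Tsc2*) and none lower, and with *Zfp598* KD 1 higher (*Tsc2*) and 1 lower (*Ank3*). When the spread was taken within siRNAs instead of within conditions, as the mean of the effects of both siRNAs, more members were called. With *Fmr1* KD 3 then rose (*Dync1h1*, *Shank2* and *Tsc2*, background 11.6%) and 6 fell (*Ank3*, *Arc*, *Bsn*, *Dlg4*, *Dlgap1* and *Grin1*, background 13.9%), and with *Zfp598* KD 1 rose (*Tsc2*, background 8.42%) and 6 fell (*Ank2*, *Ank3*, *Arc*, *Camk2a*, *Dlg4* and *Dlgap1*, background 10.1%). In bulk RNA, fewer cells that express a gene and less RNA per cell cannot be told apart.

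*Tsc2* gave 75.6, 74.6 and 76.6 CPM with Scramble siRNA A and 68.9, 68.7 and 68.8 CPM with Scramble siRNA B. It gave 95.6, 100.1 and 96.2 CPM with *Fmr1* siRNA A and 81.6, 87.9 and 81.6 CPM with *Fmr1* siRNA B. Each *Fmr1* KD library lay above each Scramble library. The pooled change was 1.25-fold (log2 fold change 0.33 ± 0.083, SE, n = 6 per condition, adjusted p = 0.0215). The 6 libraries of a condition are repeats of only 2 siRNAs. As in all pooled tests, this p and SE thus treat repeats of an siRNA as replicates of the knockdown. With counts summed per siRNA, 2 against 2, *Tsc2* was not called. With *Zfp598* KD the levels were 78.3, 86.8 and 99.1 CPM for siRNA A and 85.7, 89.8 and 78.2 CPM for siRNA B, also above each Scramble library, but the pooled log2 fold change of 0.26 ± 0.083 did not pass the test (adjusted p = 0.104). The share of all tested genes separated in either way was not counted. *Tsc2* was named because it was called, so its separation follows in part from the choice. The *Fmr1* KD call was lost, with adjusted p between 0.0501 and 0.0545, when Scramble replicate B1 or B2 or *Fmr1* KD replicate A1, A2 or A3 was left out. Of the exon bases of *Tsc2*, 12.0% overlap exons of Nthl1 and Pkd1 on the other strand, and for *Grin1* and *Dync1h1* the share is 11.9% and 10.1%. Whether the counting used strand is not given in the sources used here, so reads from such bases cannot be assigned with certainty.

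The small pooled counts did not mean that the members were at one level in all 18 libraries. With each siRNA set against the Scramble siRNA that carries its letter (n = 3 per siRNA), many members moved. The labels do not say that a letter ties a target siRNA to the Scramble siRNA of that letter, and the single-siRNA fold changes and the interactions below rest on that choice of control. With *Fmr1* siRNA A, 13 of the 30 members fell and 1 rose, where 13.6% of all tested genes were called lower and 10.0% higher. With *Fmr1* siRNA B, 11 rose and 3 fell, where 11.3% of tested genes were called higher and 11.3% lower. With *Zfp598* siRNA A, 8 fell and none rose (background 5.64% lower and 6.30% higher). DESeq2 also called none higher there, and 1 was higher at an unadjusted p under 0.05 in edgeR. The 8 that fell became 4 without Scramble replicate A2, 4 without *Zfp598* KD replicate A2, 5 without *Zfp598* KD replicate A3 and 12 without *Zfp598* KD replicate A1, and 4 without the 3 libraries that stand apart (*Fmr1* KD replicate B1 and *Zfp598* KD replicates A2 and A3). With *Zfp598* siRNA B, 6 rose and 5 fell (background 12.4% higher and 14.4% lower). The Scramble siRNAs themselves differed for the members. From Scramble siRNA A to Scramble siRNA B 12 fell and 2 rose, where 12.2% of all tested genes were lower and 10.4% higher. *Fmr1* siRNA A and *Zfp598* siRNA A were compared with the same 3 Scramble A libraries, and *Fmr1* siRNA B and *Zfp598* siRNA B with the same 3 Scramble B libraries, so these comparisons are not independent of each other or of the difference between the Scramble siRNAs. With all 6 Scramble libraries as the control, 5 members rose and 9 fell with *Fmr1* siRNA A (background 13.7% and 15.5%), and 8 rose and 4 fell with *Fmr1* siRNA B (10.1% and 10.3%). With that control 3 rose and 2 fell with *Zfp598* siRNA A (10.9% and 7.23%), and 1 rose and 7 fell with *Zfp598* siRNA B (13.8% and 16.1%).

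Some markers of the cells themselves also differed between these groups. The shares of all tested genes called are those given above for each comparison. Of the 8 neuroblastoma markers, 6 fell and none rose with *Fmr1* siRNA A, and 5 rose and none fell with *Fmr1* siRNA B. These are 75% lower and 62.5% higher, beside 13.6% and 11.3% of all tested genes. With *Zfp598* siRNA A 2 rose and 2 fell, where 8 members fell and none rose, and with *Zfp598* siRNA B 5 rose and 1 fell. From Scramble siRNA A to B 1 rose and 3 fell. Their sum was 1071 to 1165 CPM with Scramble siRNA A, 632 to 772 CPM with Scramble siRNA B, 606 to 711 CPM with *Fmr1* siRNA A and 720 to 894 CPM with *Fmr1* siRNA B. It was 958 to 1258 CPM with *Zfp598* siRNA A and 859 to 950 CPM with *Zfp598* siRNA B. Of 12 neuronal markers, such as Tubb3 and Stmn2, 9 could be tested, and 6 were lower and none higher with Scramble siRNA B than with Scramble siRNA A. Against their own controls 3 fell and none rose with *Fmr1* siRNA A, and 3 rose and none fell with *Fmr1* siRNA B. With *Zfp598* siRNA A none rose and 1 fell, and with *Zfp598* siRNA B 1 rose and 1 fell. The latter are 11.1% in each direction, near the 12.4% higher and 14.4% lower of all tested genes. The part of these marker levels in the members' differences was not tested.

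**Figure D2:**
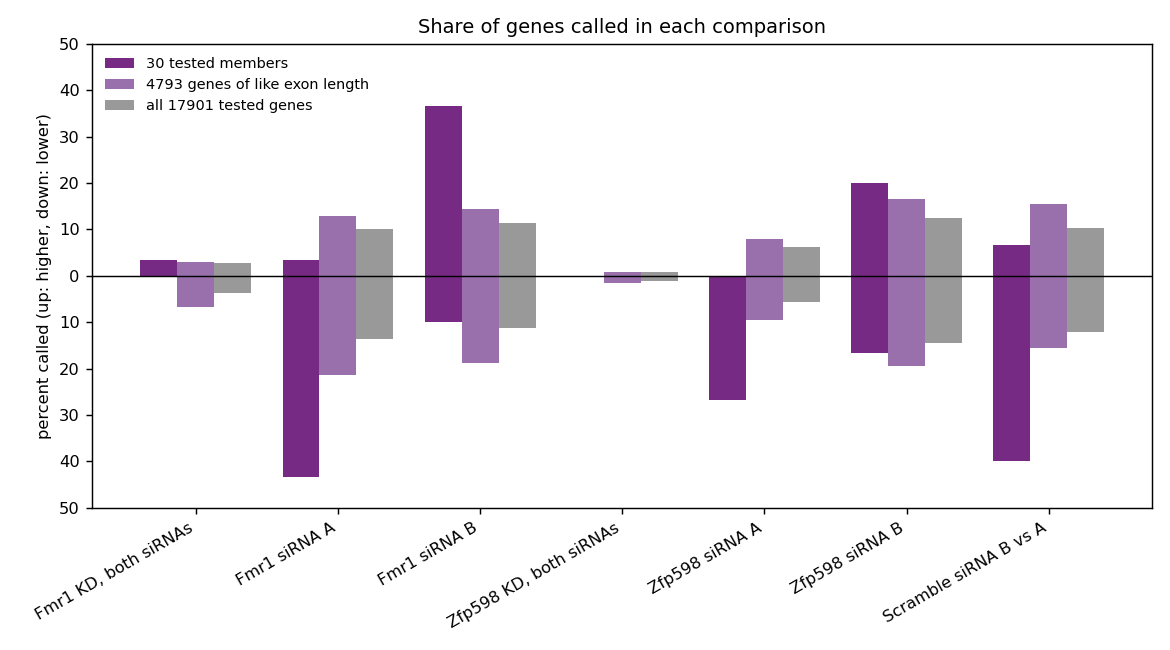
Percent of genes called higher (up from 0) and lower (down from 0) in each comparison, for the 30 tested members, for 4793 genes of like exon length and for all 17901 tested genes. The members' bars are longest for *Fmr1* siRNA A (13 of 30 lower), *Fmr1* siRNA B (11 of 30 higher) and Scramble siRNA B against A (12 of 30 lower).

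Genes of like length had medians close to 0 in each comparison. Tested genes with a summed exon length between 7633 and 25204 bases, the 10th to 90th percentile of the tested members, numbered 4793 and include members. Their median log2 fold change was -0.029 with *Fmr1* siRNA A and -0.033 with *Fmr1* siRNA B. The members' medians were -0.31 and 0.20, on opposite sides. With *Zfp598* the members' medians were -0.14 for siRNA A and 0.11 for siRNA B, against -0.031 and -0.013 for genes of like length. Between the Scramble siRNAs the members' median was -0.28 and that of genes of like length 0.0045. The medians thus lay on the same side of 0 as the members' with both A siRNAs, and on the other side with both B siRNAs and between the Scramble siRNAs. With each single siRNA and between the Scramble siRNAs, genes of like length were called more often than tested genes as a whole. With *Fmr1* siRNA A 21.3% of them were lower against 43.3% of the members, and with *Fmr1* siRNA B 14.4% were higher against 36.7% of the members. With *Zfp598* siRNA A 9.43% were lower against 26.7%, and between the Scramble siRNAs 15.6% were lower against 40% of the members. In the other direction the members had the smaller shares. These were 3.33% against 13% higher with *Fmr1* siRNA A and 10% against 18.7% lower with *Fmr1* siRNA B. They were 0% against 7.91% higher with *Zfp598* siRNA A and 6.67% against 15.5% higher between the Scramble siRNAs. With *Zfp598* siRNA B the members were near genes of like length, at 20% against 16.6% higher and 16.7% against 19.5% lower. Pooled, the members' median was 0.0053 with *Fmr1* KD and 0.0037 with *Zfp598* KD, against -0.034 and -0.018 for genes of like length. With pooled *Fmr1* KD 3.33% of the members were higher and 0% lower, against 2.98% and 6.63% of genes of like length. These are descriptions of the sets, and no test was made between them.

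**Figure D3:**
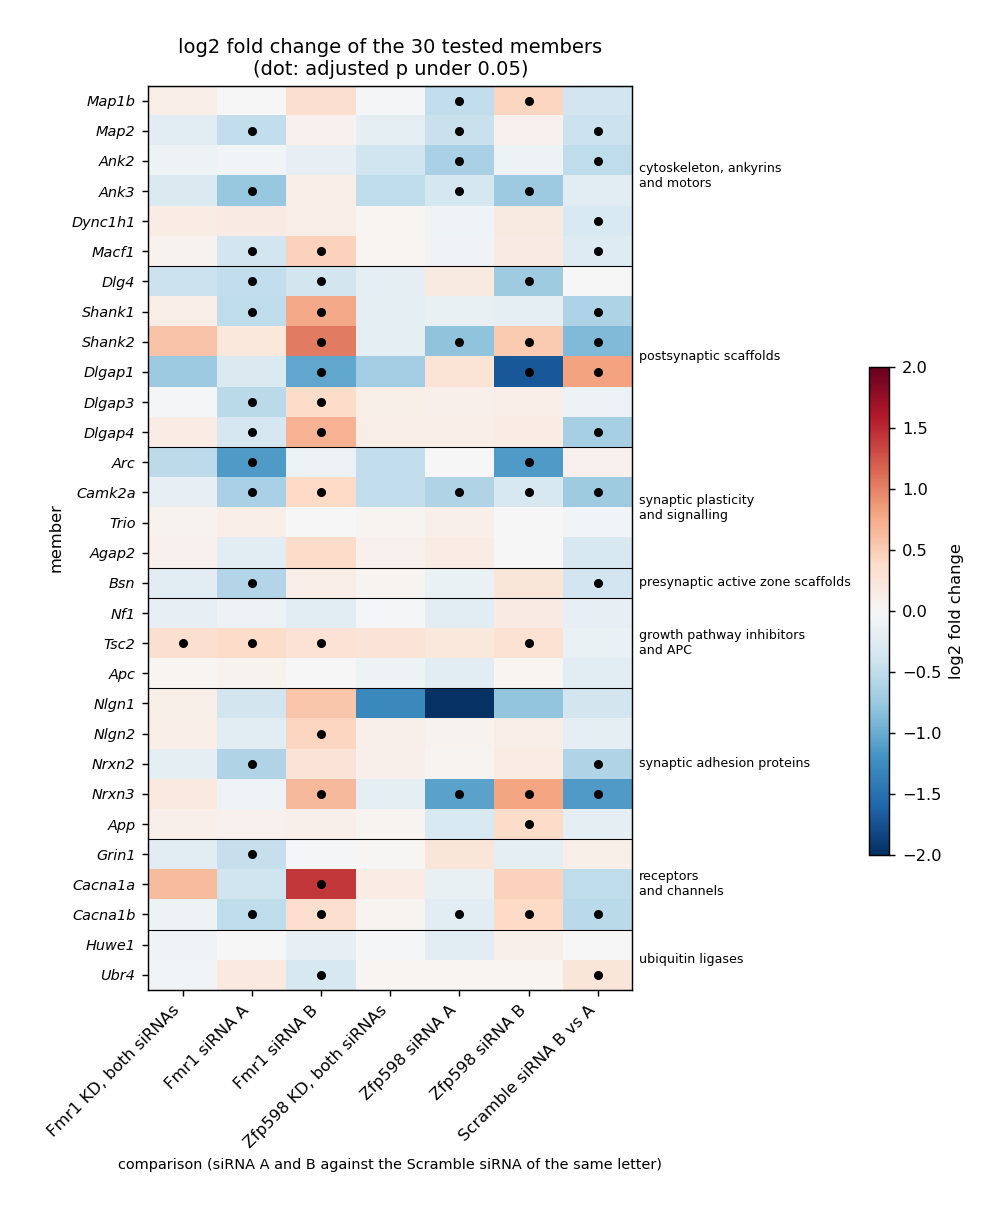
log2 fold change of the 30 tested members (rows, grouped by role) in the pooled comparisons, with each siRNA against the Scramble siRNA of its letter, and between the Scramble siRNAs (columns). Red is higher and blue lower, and dots mark adjusted p under 0.05. Among the called members, *Tsc2* was higher with both *Fmr1* siRNAs and *Dlg4* lower with both. The darkest blue, *Nlgn1* with *Zfp598* siRNA A, rests on 0 to 17 counts per library and was not called. *Nlgn1* passed the count filter only through Scramble and *Fmr1* KD libraries.

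Calls in the same direction with both siRNAs of a target were few among the members and among all tested genes. For *Fmr1*, *Tsc2* was called higher with both (3.33% of the members, 1.66% of all tested genes) and *Dlg4* lower with both (3.33% and 3.03%). Another 6 members, *Cacna1b*, *Camk2a*, *Dlgap3*, *Dlgap4*, *Macf1* and *Shank1*, were called with both siRNAs in opposite directions, lower with A and higher with B. These were 20% of the members, and over all tested genes 3.61% were called in opposite directions. With all 6 Scramble libraries as the control, *Dlgap3* and *Macf1* were still called in opposite directions, while *Dlgap4* and *Shank1* were no longer called with siRNA A, nor *Cacna1b* and *Camk2a* with siRNA B. For *Zfp598*, none was called higher with both (0.631% of tested genes) and *Ank3* and *Camk2a* were called lower with both (6.67% of the members, 1.17% of tested genes). There, 4 members (13.3%) were called in opposite directions, namely *Cacna1b*, *Map1b*, *Nrxn3* and *Shank2*, against 3.15% of tested genes. None of these 4 was called with either *Zfp598* siRNA against all 6 Scramble libraries. The *Zfp598* siRNA A calls of *Ank3* and *Camk2a* were lost without the 3 libraries that stand apart, and that of *Camk2a* also against all 6 Scramble libraries. In point estimates, 16 of the 30 members were lower with *Fmr1* siRNA A and higher with *Fmr1* siRNA B (53.3%), a pattern of 23.2% of all tested genes. For *Zfp598* the same pattern held for 13 members (43.3%) against 24.8% of all tested genes. With both *Fmr1* siRNAs 5 members were higher (16.7%) and 6 lower (20%), against 26.8% and 25.7% of all tested genes. With both *Zfp598* siRNAs 6 were higher (20%) and 6 lower (20%), against 24.6% and 24.1%.

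The difference between the siRNAs was tested directly as an interaction, the KD effect of siRNA B minus that of siRNA A. For *Fmr1*, 15 members had a higher effect with siRNA B and 1 (*Ubr4*) a lower one, where 12.2% of all tested genes were called higher and 9.65% lower. For *Zfp598*, 8 had a higher effect with siRNA B and 4 a lower one (background 10.1% and 11.9%). This term holds the Scramble difference too. Without any Scramble library, *Fmr1* siRNA B directly against *Fmr1* siRNA A gave 12 members higher and 5 lower (background 13.3% and 11.1%), and *Zfp598* siRNA B against *Zfp598* siRNA A gave 6 higher and 9 lower (background 15.6% and 19.7%). The values of the members with a called interaction follow by role.

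**Figure D4:**
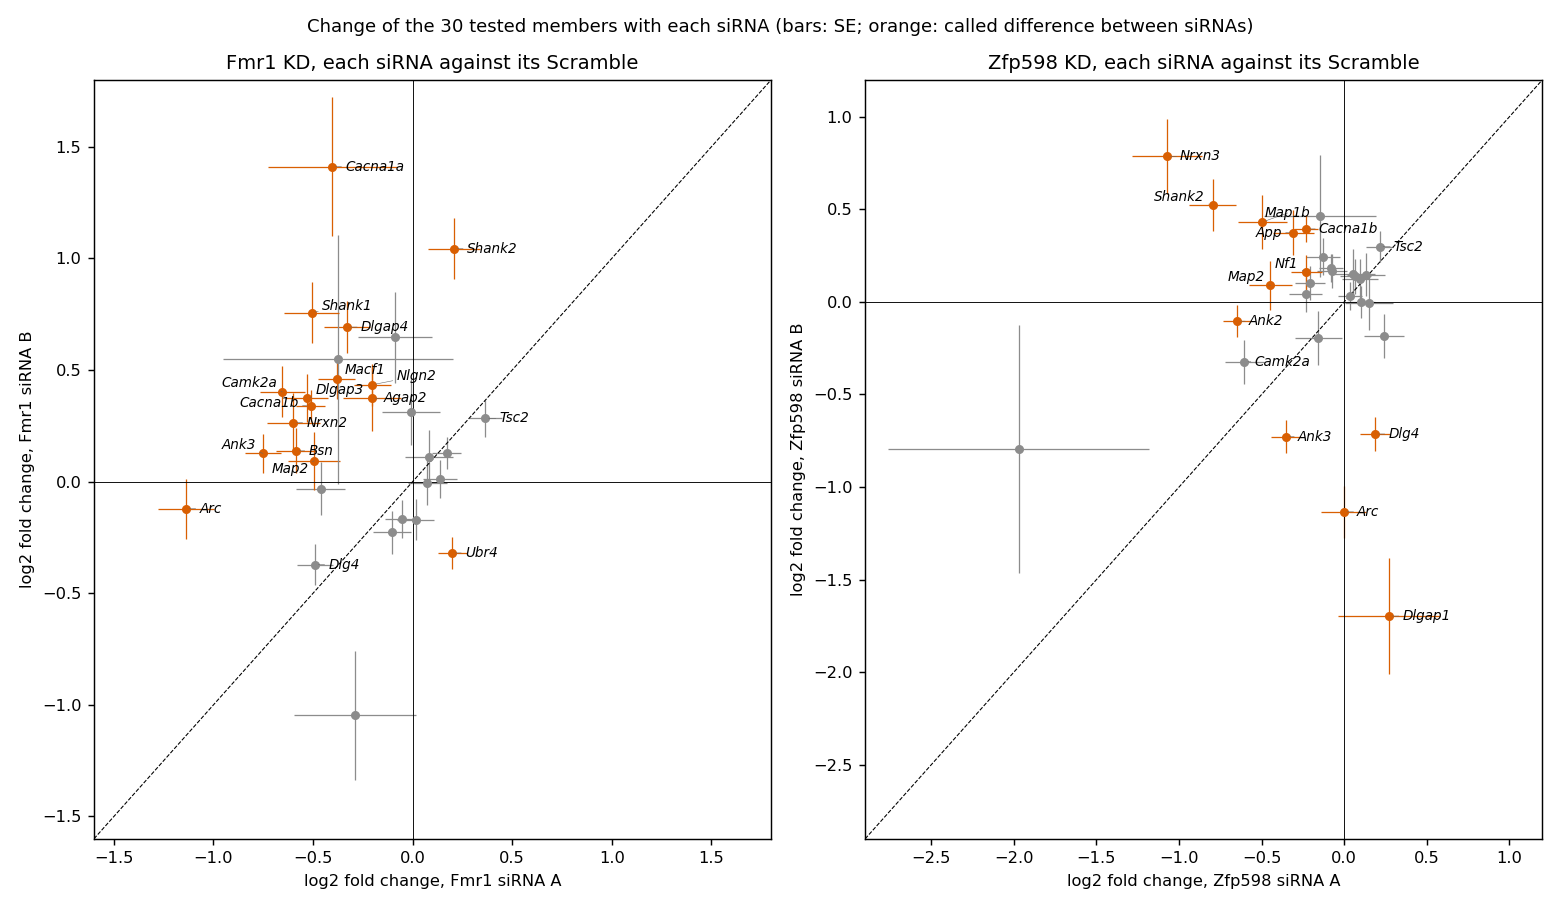
log2 fold change of the 30 tested members with siRNA A (x axis) and siRNA B (y axis), for *Fmr1* KD (left) and *Zfp598* KD (right), each against the Scramble siRNA of the same letter, with SE bars. The dashed line marks equal change, and orange points have a called interaction, 16 for *Fmr1* and 12 for *Zfp598*. Most orange points lie above the line for *Fmr1*, and for *Zfp598* *Dlg4*, *Arc*, *Ank3* and *Dlgap1* lie below it.

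Among the receptors and channels, *Cacna1b* gave 197, 202 and 199.9 CPM with Scramble siRNA A and 134, 148 and 131 CPM with Scramble siRNA B. With *Fmr1* siRNA A it gave 141, 137 and 142 CPM and with *Fmr1* siRNA B 162, 184 and 177 CPM. The *Fmr1* KD libraries thus lay between or at the levels of the controls. Measured within letters, this was a fall with siRNA A (log2 fold change -0.51 ± 0.073, adjusted p = 2.82e-05) and a rise with siRNA B (0.34 ± 0.073, adjusted p = 0.00187). With *Zfp598* KD all 6 libraries lay at 167 to 191 CPM, between the Scramble groups, and the log2 fold changes were -0.23 ± 0.073 for siRNA A (adjusted p = 0.0442) and 0.39 ± 0.073 for siRNA B (adjusted p = 4.22e-04). The interactions were 0.85 for *Fmr1* and 0.62 for *Zfp598* on the log2 scale. The *Zfp598* siRNA A call was lost when Scramble replicate A1, A2 or A3 or *Zfp598* KD replicate A2 or A3 was left out (adjusted p 0.0647 to 0.137). Against all 6 Scramble libraries its log2 fold change was 0.036 (adjusted p = 0.734). Between the Scramble siRNAs *Cacna1b* differed by -0.53 ± 0.073 (adjusted p = 2.31e-05), about as much as with *Fmr1* siRNA A.

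*Cacna1a*, the pore subunit of the P/Q-type channel, was scarce. It gave 3.75, 2.85 and 3.90 CPM with Scramble siRNA B and 14.7, 6.51 and 6.797 CPM with *Fmr1* siRNA B, a log2 fold change of 1.41 ± 0.31 (adjusted p = 0.00226). With *Fmr1* siRNA A it gave 5.14, 2.72 and 3.48 CPM against 5.37, 4.31 and 5.38 CPM (-0.40 ± 0.32, adjusted p = 0.414). The highest value, in *Fmr1* KD replicate B1, came from the library with stem cell markers. Without that library the log2 fold change with *Fmr1* siRNA B was 0.93 (adjusted p = 0.0294), which is still past the threshold. *Grin1* fell with *Fmr1* siRNA A, from 15.8, 15.8 and 15.5 CPM to 10.3, 11.5 and 12.4 CPM (-0.46 ± 0.12, adjusted p = 0.00878), and gave 18.8, 16.8 and 14.3 CPM with *Fmr1* siRNA B against 16.7, 16.7 and 17.7 CPM in its control (-0.032 ± 0.12, adjusted p = 0.882). The *Grin1* call was lost without *Fmr1* KD replicate A1 (adjusted p = 0.0577), and its interaction did not pass the test (adjusted p = 0.0788).

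Among the postsynaptic scaffolds, *Dlg4* was the member called lower with both *Fmr1* siRNAs. It gave 242, 219 and 228 CPM with Scramble siRNA A and 222, 251 and 211 CPM with Scramble siRNA B. With *Fmr1* siRNA A it gave 169, 159 and 161 CPM (-0.49 ± 0.090, adjusted p = 4.21e-04) and with *Fmr1* siRNA B 163, 194 and 172 CPM (-0.37 ± 0.090, adjusted p = 0.00486). Each *Fmr1* KD library lay below each Scramble library, and the interaction was 0.12 ± 0.13 (adjusted p = 0.566). The share of all tested genes so separated was not counted, and *Dlg4* was named because it was called with both siRNAs. Pooled, the log2 fold change of -0.43 ± 0.16 did not pass the test (adjusted p = 0.108), but *Dlg4* was called lower when the 3 libraries that stand apart (*Fmr1* KD replicate B1 and *Zfp598* KD replicates A2 and A3) were left out. With *Zfp598* KD the siRNAs parted. *Zfp598* siRNA A gave 231, 261 and 292 CPM (0.19 ± 0.090, adjusted p = 0.194), and *Zfp598* siRNA B gave 139, 139.7 and 138 CPM (-0.71 ± 0.091, adjusted p = 8.61e-06), the lowest levels of *Dlg4* in any group.

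*Shank1* and *Shank2*, large scaffolds that sit beneath PSD-95, differed between the Scramble siRNAs. *Shank2* gave 17.7, 18.6 and 21.6 CPM with Scramble siRNA A and 9.02, 9.34 and 12.98 CPM with Scramble siRNA B, a log2 difference of -0.88 ± 0.14 (adjusted p = 8.81e-05). With *Fmr1* siRNA A and B it gave 22.4, 21.2 and 23.4 CPM and 20.4, 23.1 and 21.3 CPM, nearly the same levels. Against their own controls these were log2 fold changes of 0.21 ± 0.13 (adjusted p = 0.281) and 1.04 ± 0.14 (adjusted p = 1.23e-05), so the called interaction of 0.84 came with a difference of -0.049 between the *Fmr1* siRNAs themselves (adjusted p = 0.836). With *Zfp598* KD *Shank2* gave 10.7, 11.8 and 10.9 CPM for siRNA A (-0.80 ± 0.14, adjusted p = 0.00113) and 13.6, 17.3 and 14.3 CPM for siRNA B (0.52 ± 0.14, adjusted p = 0.00847). The last call was lost without Scramble replicate B1 or *Zfp598* KD replicate B2 (adjusted p 0.0512 to 0.0572). *Shank1* fell from 14.9, 14.4 and 13.8 CPM to 10.7, 9.03 and 10.5 CPM with *Fmr1* siRNA A (-0.51 ± 0.14, adjusted p = 0.0104) and rose from 8.75, 9.41 and 9.97 CPM to 17.1, 15.7 and 14.8 CPM with *Fmr1* siRNA B (0.76 ± 0.14, adjusted p = 4.15e-04). Its fall was lost without *Fmr1* KD replicate A2 (adjusted p = 0.0619), and the *Zfp598* siRNAs gave 10.7 to 16.4 CPM and 7.75 to 9.01 CPM with no call.

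The Dlgap proteins link PSD-95 to the Shank scaffolds. *Dlgap3* fell with *Fmr1* siRNA A, from 43.6, 34.7 and 39.9 CPM to 25.1, 26.4 and 30.05 CPM (-0.53 ± 0.11, adjusted p = 0.00117), and rose with *Fmr1* siRNA B, from 34.5, 37.8 and 36.6 CPM to 40.3, 52.5 and 48.2 CPM (0.37 ± 0.11, adjusted p = 0.0149). *Dlgap4* gave 53.7, 54.5 and 47.02 CPM with Scramble siRNA A and 40.6, 37.1 and 45.8 CPM with *Fmr1* siRNA A (-0.33 ± 0.11, adjusted p = 0.0411), against 30.9, 33.8 and 33.4 CPM with Scramble siRNA B and 47.8, 52.2 and 58.4 CPM with *Fmr1* siRNA B (0.69 ± 0.11, adjusted p = 1.73e-04). Both genes were thus called in opposite directions with the *Fmr1* siRNAs, and without a call with either *Zfp598* siRNA. Against all 6 Scramble libraries the change of *Dlgap4* with *Fmr1* siRNA A was 0.0014 (adjusted p = 0.994). Its call was also lost without Scramble replicate A1 or A2 or *Fmr1* KD replicate A1 or A2 (adjusted p 0.110 to 0.179), and that of *Dlgap3* with *Fmr1* siRNA B without Scramble replicate B1 or *Fmr1* KD replicate B2 (adjusted p 0.0626 to 0.0939).

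*Dlgap1* was scarce, at 11 to 96 counts per library. It gave 5.33, 5.11 and 6.14 CPM with Scramble siRNA B, 3.71, 2.17 and 2.13 CPM with *Fmr1* siRNA B (-1.05 ± 0.29, adjusted p = 0.0118) and 2.01, 0.879 and 2.21 CPM with *Zfp598* siRNA B (-1.70 ± 0.31, adjusted p = 4.15e-04). With the A siRNAs it gave 2.20, 4.31 and 2.83 CPM for Scramble, 2.16, 3.19 and 2.37 CPM for *Fmr1* and 4.06, 4.37 and 2.67 CPM for *Zfp598*, with no call. The level in the Scramble B libraries was thus the highest of the 6 groups. The call with *Fmr1* siRNA B was lost without *Fmr1* KD replicate B2 or B3 (adjusted p 0.0623 to 0.0644).

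Among the genes of synaptic plasticity and signalling, *Arc*, the immediate early gene whose protein drives the internalization of AMPA receptors, fell to below its controls with 1 siRNA of each target. *Arc* gave 33.4, 29.9 and 31.2 CPM with Scramble siRNA A and 28.9, 38.2 and 33.2 CPM with Scramble siRNA B. With *Fmr1* siRNA A it gave 12.7, 14.5 and 15.7 CPM (-1.14 ± 0.14, adjusted p = 5.40e-06) and with *Fmr1* siRNA B 28.9, 30.7 and 32.5 CPM (-0.12 ± 0.13, adjusted p = 0.563). The former lay below each Scramble library and the latter among them, and the share of all tested genes so placed was not counted. With *Zfp598* KD the letters changed places, with 25.4, 39.03 and 29.9 CPM for siRNA A (-0.0035 ± 0.14, adjusted p = 0.991) and 14.4, 14.4 and 16.9 CPM for siRNA B (-1.13 ± 0.14, adjusted p = 6.31e-06). *Arc* thus fell by more than 2-fold with 1 siRNA of each target and was not called with the other, and the interactions of 1.02 and -1.13 passed the test (adjusted p = 6.64e-04 and 3.32e-04).

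*Camk2a*, the alpha subunit of the calcium/calmodulin-dependent kinase of the postsynapse, gave 53.1, 54.5 and 47.5 CPM with Scramble siRNA A and 34.5, 34.2 and 26.5 CPM with Scramble siRNA B. It gave 32.4, 36.5 and 29.7 CPM with *Fmr1* siRNA A (-0.65 ± 0.11, adjusted p = 2.46e-04) and 39.7, 45.9 and 40.1 CPM with *Fmr1* siRNA B (0.40 ± 0.11, adjusted p = 0.0144). It gave 37.4, 30.7 and 33.6 CPM with *Zfp598* siRNA A (-0.60 ± 0.12, adjusted p = 0.00205) and 23.5, 26.7 and 25.9 CPM with *Zfp598* siRNA B (-0.32 ± 0.12, adjusted p = 0.0472). *Camk2a* was thus lower with both *Zfp598* siRNAs, and was called in opposite directions with the *Fmr1* siRNAs. The call with *Zfp598* siRNA B was lost when any of 5 libraries was left out, Scramble replicate B1 or B2 or *Zfp598* KD replicate B1, B2 or B3 (adjusted p 0.0762 to 0.194). That with *Zfp598* siRNA A was lost without the 3 libraries that stand apart (adjusted p = 0.0718), and that with *Fmr1* siRNA B without Scramble replicate B3 or *Fmr1* KD replicate B2 (adjusted p 0.0737 to 0.0854). *Agap2*, a GTPase-activating protein that binds PI3-kinase, had a called *Fmr1* interaction (0.58 ± 0.20, adjusted p = 0.0483) with no call for either siRNA. Its levels were 36.3, 35.4 and 41.1 CPM with *Fmr1* siRNA A and 40.7, 46.3 and 48.6 CPM with *Fmr1* siRNA B, and the interaction was lost when any 1 of 8 libraries was left out, Scramble replicates A1, A3, B1 and B2 and *Fmr1* KD replicates A1, A2, B2 and B3 (adjusted p 0.0796 to 0.124). *Trio*, a guanine nucleotide exchange factor, was called in none of these comparisons, with log2 fold changes from -0.12 to 0.14.

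*Bsn*, which encodes the active zone scaffold bassoon, fell with *Fmr1* siRNA A from 87.8, 80.3 and 87.2 CPM to 54.6, 55.5 and 59.9 CPM (-0.59 ± 0.10, adjusted p = 2.18e-04). With *Fmr1* siRNA B it gave 68.5, 72.3 and 74.5 CPM against 62.5, 60.1 and 72.9 CPM (0.14 ± 0.10, adjusted p = 0.358), and the interaction was 0.72 ± 0.14 (adjusted p = 9.00e-04). The *Zfp598* siRNAs gave 67.1 to 89.3 CPM and 70.1 to 81.8 CPM with no call.

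Among the synaptic adhesion proteins, *Nlgn2*, the neuroligin of inhibitory synapses, rose with *Fmr1* siRNA B from 66.8, 75.3 and 65.3 CPM to 85.7, 100.3 and 94.1 CPM (0.43 ± 0.093, adjusted p = 0.00186) and gave 61.8, 70.1 and 72.9 CPM with *Fmr1* siRNA A against 84.8, 75.98 and 74.99 CPM (-0.20 ± 0.094, adjusted p = 0.13). *Nrxn2*, a presynaptic neurexin that binds neuroligins, fell with *Fmr1* siRNA A from 188, 153 and 179 CPM to 108, 114 and 122 CPM (-0.60 ± 0.13, adjusted p = 0.00217) and gave 126, 144 and 142 CPM with *Fmr1* siRNA B against 114, 118 and 111 CPM (0.26 ± 0.13, adjusted p = 0.164). For both genes the *Fmr1* interaction passed the test (adjusted p = 0.00142 and 0.00202). *Nrxn3* differed most of the 30 members between the Scramble siRNAs, with 5.37, 4.97 and 6.30 CPM for Scramble siRNA A and 2.83, 2.04 and 2.68 CPM for Scramble siRNA B (-1.13 ± 0.20, adjusted p = 2.99e-04). *Zfp598* siRNA A gave 2.48, 2.67 and 2.85 CPM (-1.07 ± 0.21, adjusted p = 0.00247) and *Zfp598* siRNA B gave 4.32, 3.36 and 5.45 CPM (0.79 ± 0.20, adjusted p = 0.00684), so that its levels with the *Zfp598* siRNAs were the reverse of those with the controls. With the *Fmr1* siRNAs *Nrxn3* gave 5.205, 5.57 and 4.88 CPM for A (-0.087 ± 0.18, adjusted p = 0.787) and 3.98, 4.27 and 3.64 CPM for B (0.65 ± 0.20, adjusted p = 0.0253). The rise with *Zfp598* siRNA B was lost without *Zfp598* KD replicate B3 (adjusted p = 0.0530), and that with *Fmr1* siRNA B without Scramble replicate B2 or *Fmr1* KD replicate B1 or B2 (adjusted p 0.0573 to 0.117).

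*App*, whose translation FMRP is known to repress, gave 382, 523 and 416 CPM with Scramble siRNA A and 364, 396 and 388 CPM with Scramble siRNA B. With *Fmr1* KD it was not called, at 445 to 493 CPM with siRNA A and 397 to 421 CPM with siRNA B. With *Zfp598* siRNA B it rose to 487, 529.7 and 470.2 CPM (0.37 ± 0.12, adjusted p = 0.0278), and *Zfp598* siRNA A gave 445, 317 and 303 CPM (-0.31 ± 0.12, adjusted p = 0.109). The interaction was 0.68 ± 0.17 (adjusted p = 0.00742). The rise was lost without Scramble replicate B1 or B3 or *Zfp598* KD replicate B1 or B2 (adjusted p 0.0527 to 0.0934). The low values with *Zfp598* siRNA A were those of replicates A2 and A3, and without the 3 libraries that stand apart the interaction was 0.38 (adjusted p = 0.0983).

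Among the growth pathway inhibitors and APC, *Tsc2* was described above, and with single siRNAs it rose with *Fmr1* siRNA A (0.36 ± 0.083, adjusted p = 0.00273), *Fmr1* siRNA B (0.28 ± 0.083, adjusted p = 0.0165) and *Zfp598* siRNA B (0.30 ± 0.083, adjusted p = 0.011). With *Zfp598* siRNA A its log2 fold change was 0.21 ± 0.084 (adjusted p = 0.102). The calls with the B siRNAs were lost without *Fmr1* KD replicate B2 (adjusted p = 0.0718) and without *Zfp598* KD replicate B2 (adjusted p = 0.0523). *Nf1*, neurofibromin, a Ras GTPase-activating protein, gave 259.8, 199 and 194 CPM with *Zfp598* siRNA A and 250.3, 250.0 and 265 CPM with *Zfp598* siRNA B. Neither was called against its control, and the interaction of 0.39 ± 0.14 (adjusted p = 0.0447) was lost when any 1 of 8 of the 12 libraries concerned was left out, Scramble replicates A2, B1 and B3 and *Zfp598* KD replicates A2, A3, B1, B2 and B3 (adjusted p 0.0524 to 0.106). Without the 3 libraries that stand apart it was 0.16 (adjusted p = 0.409). *Apc*, which binds microtubules and promotes the destruction of beta-catenin, was called in none of the comparisons with a Scramble siRNA.

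Among the cytoskeletal members, *Ank3*, or ankyrin-G, the organizer of the axon initial segment, was lowest with *Fmr1* siRNA A and *Zfp598* siRNA B, as *Arc* was. *Ank3* gave 314, 370.2 and 317 CPM with Scramble siRNA A and 279, 299 and 274 CPM with Scramble siRNA B. With *Fmr1* siRNA A it gave 194, 201 and 199 CPM (-0.75 ± 0.090, adjusted p = 3.60e-06) and with *Fmr1* siRNA B 291, 319 and 319 CPM (0.13 ± 0.089, adjusted p = 0.341). With *Zfp598* siRNA A it gave 299, 234 and 250.5 CPM (-0.35 ± 0.090, adjusted p = 0.0137) and with *Zfp598* siRNA B 169, 179.7 and 166 CPM (-0.73 ± 0.090, adjusted p = 6.05e-06). *Ank3* was thus called lower with 3 of the 4 knockdown siRNAs. The call with *Zfp598* siRNA A was lost without Scramble replicate A2 or *Zfp598* KD replicate A2 (adjusted p 0.0767 to 0.0896), and without the 3 libraries that stand apart the value was -0.17 (adjusted p = 0.363). Also lost was the *Zfp598* interaction of -0.37 (adjusted p = 0.0393), without any 1 of 9 libraries (adjusted p 0.0528 to 0.107), namely the Scramble and *Zfp598* KD libraries other than Scramble replicate A2 and *Zfp598* KD replicates A2 and A3. Its *Fmr1* interaction was 0.88 ± 0.13 (adjusted p = 3.67e-05).

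**Figure D5:**
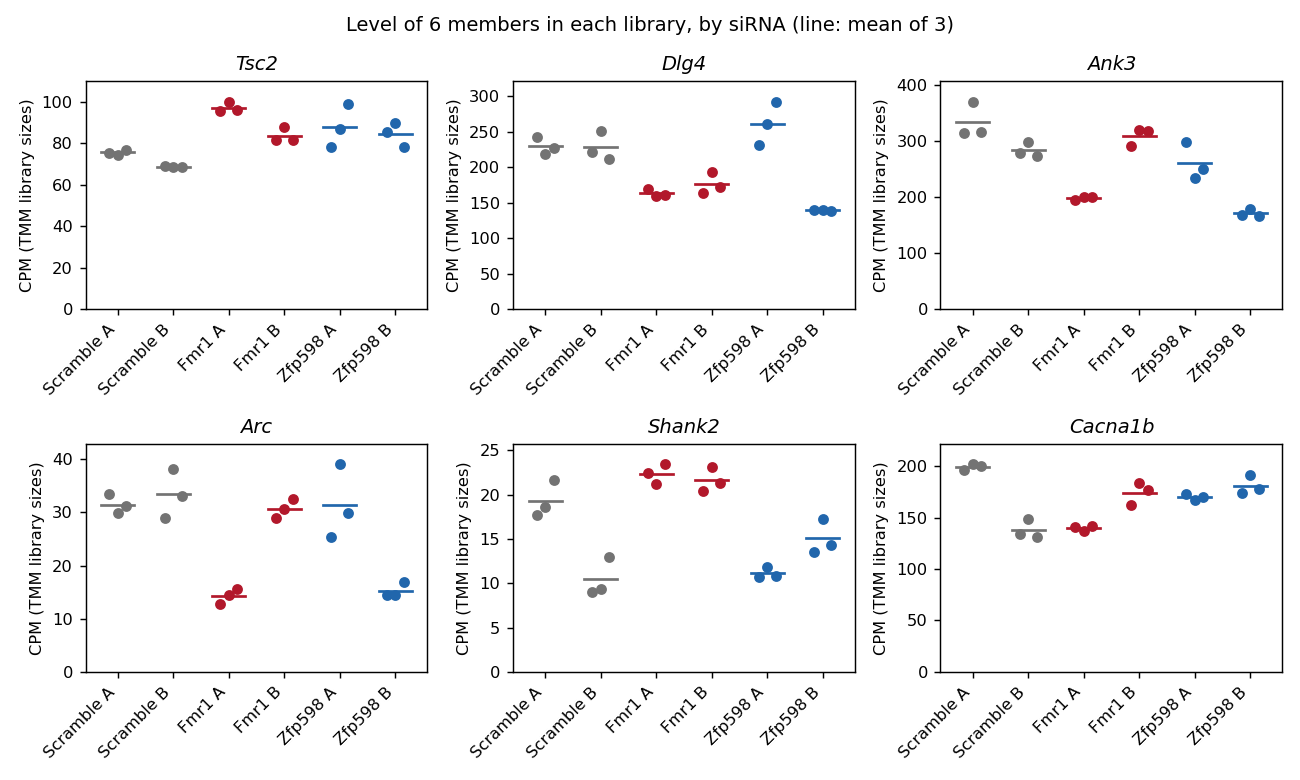
CPM (TMM library sizes, axis from 0) of 6 members in each of the 18 libraries, by siRNA. Points are libraries and lines the mean of 3. *Tsc2* is above the Scramble libraries in all *Fmr1* KD libraries and *Dlg4* below them, *Arc* and *Ank3* are low with *Fmr1* siRNA A and *Zfp598* siRNA B, and *Shank2* and *Cacna1b* differ between the Scramble siRNAs.

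*Ank2*, or ankyrin-B, was lower in the Scramble B than in the Scramble A libraries (214, 228 and 226 against 289, 347 and 309 CPM, -0.50 ± 0.085, adjusted p = 2.14e-04). It fell with *Zfp598* siRNA A to 226, 186 and 189 CPM (-0.65 ± 0.086, adjusted p = 5.14e-05), and with *Zfp598* siRNA B it gave 215, 205 and 201 CPM (-0.10 ± 0.085, adjusted p = 0.405). With the *Fmr1* siRNAs it gave 301, 321 and 289 CPM for A and 197, 204 and 193 CPM for B and was not called. *Macf1*, a giant linker of microtubules and actin, fell with *Fmr1* siRNA A from 290.0, 288 and 285 CPM to 219, 222 and 222 CPM (-0.38 ± 0.092, adjusted p = 0.00446) and rose with *Fmr1* siRNA B from 238, 240.1 and 244 CPM to 402, 288 and 303 CPM (0.46 ± 0.092, adjusted p = 0.001). The highest of these values was again *Fmr1* KD replicate B1. Without that library the rise was 0.30 (adjusted p = 0.005).

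*Map1b* gave 1760.2, 2629 and 1928 CPM with Scramble siRNA A and 1485, 1655 and 1692 CPM with Scramble siRNA B, and with *Fmr1* KD it gave 2021, 2251 and 2011 CPM for siRNA A (-0.0080 ± 0.15, adjusted p = 0.978) and 1928, 2050.2 and 2024 CPM for siRNA B (0.31 ± 0.15, adjusted p = 0.138). *Map1b* was thus not called with either *Fmr1* siRNA or pooled (0.14 ± 0.15, adjusted p = 0.651). With *Zfp598* siRNA A it gave 1945, 1312 and 1219 CPM (-0.50 ± 0.15, adjusted p = 0.0327), and the low values were those of the libraries A2 and A3 in which 1 feature took 15.2% and 25.8% of the counts. Without A2 the adjusted p was 0.15 and without A3 0.128, and it was 0.207 without Scramble replicate A2. Without the 3 libraries that stand apart the change was -0.13 (adjusted p = 0.711). With *Zfp598* siRNA B it gave 2205, 2335 and 1975 CPM (0.43 ± 0.15, adjusted p = 0.0355), a call lost without any 1 of Scramble replicates B1, B2 and B3 and *Zfp598* KD replicates B1 and B2 (adjusted p 0.0525 to 0.117). The interaction of 0.93 ± 0.21 passed the test (adjusted p = 0.00307).

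*Map2*, the dendritic microtubule-associated protein, fell with *Fmr1* siRNA A from 92.3, 111 and 84.4 CPM to 68.6, 76.7 and 58.8 CPM (-0.49 ± 0.13, adjusted p = 0.00831) and with *Zfp598* siRNA A to 87.4, 67.7 and 53.9 CPM (-0.45 ± 0.13, adjusted p = 0.0313). With the B siRNAs it gave 73.4, 71.7 and 69.2 CPM for Scramble, 75.7, 75.8 and 77.03 CPM for *Fmr1* and 79.4, 75.9 and 72.5 CPM for *Zfp598*, with no call. Both interactions passed the test (0.59, adjusted p = 0.0262, and 0.54, adjusted p = 0.0445). The fall with *Fmr1* siRNA A was lost without *Fmr1* KD replicate A3 (adjusted p = 0.0522), and that with *Zfp598* siRNA A without Scramble replicate A2 or *Zfp598* KD replicate A2 or A3 (adjusted p 0.110 to 0.161). The *Fmr1* interaction was lost without Scramble replicate A2 or B3 or *Fmr1* KD replicate A3 (adjusted p 0.0535 to 0.0685), and the *Zfp598* interaction without any 1 of 9 of the 12 libraries, those other than Scramble replicates A1 and A3 and *Zfp598* KD replicate A1 (adjusted p 0.0551 to 0.107). The lowest values with *Zfp598* siRNA A were those of replicates A2 and A3. Without the 3 libraries that stand apart the change with *Zfp598* siRNA A was -0.15 (adjusted p = 0.604) and the *Zfp598* interaction 0.24 (adjusted p = 0.343). *Dync1h1* was called between the Scramble siRNAs (-0.30 ± 0.073, adjusted p = 0.00498) and with no knockdown siRNA.

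Of the ubiquitin ligases, *Ubr4* gave 945, 1001 and 1007 CPM with Scramble siRNA A and 1124, 1147 and 1229.7 CPM with Scramble siRNA B. It fell with *Fmr1* siRNA B to 929, 944 and 932 CPM (-0.32 ± 0.073, adjusted p = 0.00304) and gave 1133, 1139.9 and 1114 CPM with *Fmr1* siRNA A (0.20 ± 0.073, adjusted p = 0.0555), opposite to most members, and its interaction was -0.52 ± 0.10 (adjusted p = 0.00102). The *Zfp598* siRNAs gave 958 to 1093 CPM and 1157 to 1239 CPM with no call. *Huwe1* was called neither in the pooled comparisons nor with any siRNA against its Scramble siRNA, with levels of 1082 to 1517 CPM over the 18 libraries.

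Between the Scramble siRNAs the members that fell were *Ank2*, *Bsn*, *Cacna1b*, *Camk2a*, *Dlgap4*, *Dync1h1*, *Macf1*, *Map2*, *Nrxn2*, *Nrxn3*, *Shank1* and *Shank2*, and those that rose *Dlgap1* and *Ubr4*. Of these 14 calls, 9 stood when any 1 library was left out. Lost were *Bsn* without Scramble replicate B2 (adjusted p = 0.0509), *Dlgap1* without any Scramble library but A2 (0.0759 to 0.193), *Macf1* without any one of the 6 (0.0643 to 0.110), *Map2* without A2, B2 or B3 (0.0571 to 0.0943) and *Ubr4* without A1 or B3 (0.0908 to 0.0909).

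Further FMRP targets and the genes of the mGluR pathway also held pooled calls. Of 45 further FMRP targets of brain, 41 were tested, and with *Fmr1* KD 1 rose (*Kalrn*) and 2 fell, among them *Unc13a*. These are 2.44% and 4.88%, beside 2.73% and 3.80% of all tested genes. Of 27 genes that lead from group 1 mGluRs to translation, all were tested, and 2 rose (*Homer3* and *Cyfip1*) and 3 fell, among them *Map2k1*. These are 7.41% and 11.1%, above the shares of all tested genes, and no test was made between the sets. The lists were chosen with earlier results of these data known, so the excess cannot be read as a trait of the pathway. The medians of the log2 fold changes were -0.017 and -0.14, beside 0.0025 over all tested genes. With *Zfp598* KD 1 further target fell (*Map1a*, -0.51 ± 0.12, adjusted p = 0.0342), and no mGluR pathway gene was called by edgeR, with 2 higher and 3 lower at an unadjusted p under 0.05. With *Fmr1* siRNA A 3 further targets rose and 19 fell, with *Fmr1* siRNA B 13 rose and 2 fell, and from Scramble siRNA A to B 2 rose and 19 fell. Of the 27 mGluR pathway genes, 4 rose and 7 fell with *Fmr1* siRNA A, and 3 rose and 10 fell with *Fmr1* siRNA B. The backgrounds of these comparisons are those given above for the members. The names of *Unc13a*, *Map2k1* and *Map1a* are given because the counts are small, and were chosen after their values were seen.

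The called genes of these lists that rose with *Fmr1* KD were *Homer3*, *Kalrn* and *Cyfip1*. *Homer3*, a scaffold of group 1 mGluRs, gave 8.74 to 11.7 CPM over the Scramble libraries and 14.6 to 17.3 CPM over the *Fmr1* KD libraries (0.67 ± 0.13, adjusted p = 0.00321). *Kalrn*, a guanine nucleotide exchange factor of dendritic spines, gave 96.1 to 136 CPM over the Scramble libraries and 146 to 204 CPM over the *Fmr1* KD libraries (0.60 ± 0.13, adjusted p = 0.00707). *Cyfip1*, a partner of FMRP in the repression of translation, gave 105 to 114 CPM over the Scramble libraries and 126 to 144 CPM over the *Fmr1* KD libraries (0.33 ± 0.071, adjusted p = 0.00859). For these 3 genes each *Fmr1* KD library lay above each Scramble library. They were named because they were called in this comparison, so that separation follows in part from the choice. The share of all tested genes so separated was not counted. With *Zfp598* siRNA A and B, *Homer3* gave 8.54 to 10.9 and 11.9 to 15.4 CPM. *Kalrn* gave 105 to 118 and 143 to 149 CPM there, and *Cyfip1* 110 to 123 and 125 to 134 CPM.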

How the data were processed

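The authors sequenced rRNA-depleted total RNA and deposited raw counts per gene. The submitters' notes name Trim Galore, STAR, featureCounts and GRCm39, and versions, annotation release and strand setting are not given in the sources used here. Counts were taken as deposited (7674724 to 15414590 per library, which limits precision for the scarcest members) and grouped by siRNA from the labels. GENCODE M39 had an entry for 54749 of the 55414 genes (98.8%) and gave exon and coding lengths and the coding windows.

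Genes passing filterByExpr in edgeR 4.0.16 (minimum count 10, total 15) were tested by quasi-likelihood with TMM library sizes in R 4.3.3, with Benjamini-Hochberg adjustment over all 17901 tested genes. Pooled comparisons used a model with 3 conditions and all others a model with 6 siRNA groups, both over 18 libraries. Fold changes are log2 with their SE, and CPM uses TMM library sizes. Alternatives were DESeq2 1.42.0, RLE factors, no filter, a 2-fold criterion, a replicate block, siRNA letter as a term, spread within siRNAs, sums per siRNA, all Scramble libraries as control and leaving out each library. Direct comparison of the siRNAs of a target and leaving out 3 libraries were chosen after seeing the data. Only the pooled *Fmr1* KD test was checked on simulated data, which held no difference between siRNAs of a condition. The single-siRNA and interaction tests were not checked in this way. Replicate numbers gave no clear pairing of the libraries, and a shared day or batch was not tested.

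The members and lists were chosen with earlier results of these data known. Values are given for each member called in a pooled comparison, called in the same direction with both siRNAs of a target or with a called interaction, and for some others chosen after their values were seen. Of the further lists, the rule was to give the 3 called genes with the largest change in each direction with *Fmr1* KD, and those that rose are given while the values of those that fell are not reported here. Of 12 pluripotent stem cell markers 11 could be matched. Protein sequences were not analysed here.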

Additional observations from a re-analysis of the deposited data

Results flagged for a closer look

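In 4 of 90 groups examined, 30 tested members in 3 conditions, 1 library of a condition stood far from the other 5. Chance gives such a gap in about 1 of 20 groups, so the count is no larger than chance gives. *Apc* gave 178.5 CPM and *App* 522.6 CPM in Scramble KD replicate A2, where the nearest other Scramble libraries gave 143.7 and 415.7 CPM. *Trio* gave 317.5 CPM in *Zfp598* KD replicate A3, the library in which 1 feature took 25.8% of the counts, against 250.1 CPM in the nearest library. *Cacna1a* gave 14.7 CPM in *Fmr1* KD replicate B1, the library with stem cell markers, against 6.797 CPM in the nearest. The part of these libraries' properties in the values was not tested.

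The effect of *Fmr1* KD differed between the siRNAs for 16 members by the interaction term of edgeR's quasi-likelihood test (adjusted p under 0.05). On the log2 scale, siRNA B minus siRNA A, the difference was 1.81 for *Cacna1a*, 1.26 for *Shank1*, 1.06 for *Camk2a*, 1.02 for *Dlgap4*, 1.02 for *Arc*, 0.91 for *Dlgap3*, 0.88 for *Ank3*, 0.86 for *Nrxn2*, 0.85 for *Cacna1b*, 0.84 for *Macf1* and 0.84 for *Shank2*. It was 0.72 for *Bsn*, 0.64 for *Nlgn2*, 0.59 for *Map2*, 0.58 for *Agap2* and -0.52 for *Ubr4*. The same term for *Zfp598* KD passed for 12 members. It was 1.86 for *Nrxn3*, 1.32 for *Shank2*, 0.93 for *Map1b*, 0.68 for *App*, 0.62 for *Cacna1b*, 0.55 for *Ank2*, 0.54 for *Map2* and 0.39 for *Nf1*. It was -1.97 for *Dlgap1*, -1.13 for *Arc*, -0.90 for *Dlg4* and -0.37 for *Ank3*. Each term holds the difference between the Scramble siRNAs, which was itself called for 14 members.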

How the results depend on the processing

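Of 90 calls of single members, DESeq2 kept 89 on the same side of the threshold with the same direction, the replicate block 89, RLE factors 87, no filter 83 and leaving out the 3 libraries that stand apart 81, and 60 of 90 held when any 1 library was left out. Counts of members below are given as higher and lower. DESeq2 called 2 higher with *Fmr1* KD, 1 and 1 with *Zfp598* KD, and 3 higher with *Fmr1* siRNA A. Without a filter, and with counts summed per siRNA, the count higher with *Fmr1* KD was 0. The block changed the count higher to 2 with *Fmr1* siRNA A and to 1 between the Scramble siRNAs. Same-numbered libraries had a median correlation of 0.035 in 45 pairs, against -0.013 in 90 pairs of different numbers. In each set 8 pairs exceeded 0.1. The numbers thus gave no clear pairing, and a shared day or batch was not tested. With the siRNA letter as a term 2 were higher with *Fmr1* KD and 1 with *Zfp598* KD. With the spread within siRNAs the counts were 3 and 6, and 1 and 6. Against all 6 Scramble libraries 5 were higher with *Fmr1* siRNA A, 3 higher and 2 lower with *Zfp598* siRNA A, and 1 higher with *Zfp598* siRNA B. There *Dlgap4* with *Fmr1* siRNA A came to 0.0014 (adjusted p = 0.994) and *Cacna1b* with *Zfp598* siRNA A to 0.036 (adjusted p = 0.734), both reversed in direction. Without the 3 libraries, 1 was lower with *Fmr1* KD, 3 lower with *Zfp598* KD (*Ank3*, *Arc* and *Dlg4*), 3 higher with *Fmr1* siRNA A and 4 lower with *Zfp598* siRNA A, a siRNA then left with 1 library that is assumed to vary like the others. Direct comparison of siRNAs gave 5 lower for *Fmr1* and 9 lower for *Zfp598*, and reversed *Shank2* for *Fmr1* to -0.049 (adjusted p = 0.836). With a 2-fold criterion the count was 0 higher for *Fmr1* KD, 0 and 1 for *Fmr1* siRNA A, 2 and 1 for *Fmr1* siRNA B, 1 lower for *Zfp598* siRNA A, 0 and 2 for *Zfp598* siRNA B, 0 and 1 between the Scramble siRNAs, 5 and 0 for the *Fmr1* interaction and 2 and 2 for that of *Zfp598*. Over the full length range of the members the genes' medians were -0.0032 for *Fmr1* KD, -9e-04 for *Fmr1* siRNA A and 2e-04 for *Fmr1* siRNA B. The cause of these changes was not tested. Leaving out 1 library gave 0 to 2 higher and 0 to 0 lower for *Fmr1* KD, 0 to 0 and 0 to 1 for *Zfp598* KD, 1 to 1 and 11 to 13 for *Fmr1* siRNA A, 7 to 11 and 2 to 3 for *Fmr1* siRNA B, 0 to 2 and 4 to 12 for *Zfp598* siRNA A, 2 to 5 and 4 to 5 for *Zfp598* siRNA B, 0 to 2 and 9 to 12 between the Scramble siRNAs, 14 to 15 and 1 to 1 for the *Fmr1* interaction, and 6 to 10 and 3 to 6 for that of *Zfp598*.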
